A study of Mus musculus with 2 samples.

Results

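The gene set held 9 of the 32285 genes of the count matrix, found by symbol: Mrc1, Cd163, Lyve1, Folr2, Maf, F13a1, Retnla, Ednrb and Ms4a8a. They were chosen from earlier results on the same nuclei, in which several of them led a macrophage cluster. Their levels by cluster and by well, and their co-detection, are therefore given as a description. In this deposit they were seen largely in 1 of 2 wells. Within that well F13a1 was detected mostly in nuclei that also held a resident gene (Mrc1, Cd163, Lyve1, Folr2 or Maf). Of 137 nuclei with F13a1 there, 118 held a resident gene, beside 210 of all 356 nuclei counted. Ccr2 and Fn1, genes linked to monocytes, were detected with F13a1 in 1.24 and 1.19 times the number of nuclei that independence gives. Vcan, another such gene, was seen with F13a1 in 13 of 18 nuclei, 1.88 times that number (1.01 to 3.17). Over alternative settings this ratio fell as low as 1.25. Of 5 monocyte genes with enough counts, 4 were at 1.5 times or more in nuclei with F13a1, beside 11.8% of 2955 genes tested. The counts needed were in part reached through the F13a1 side, so nothing is read from that number.

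The study profiled nuclei of TAMs (macrophages associated with a tumour), taken from mammary tumours that PyMT mice develop from the polyoma middle T oncogene. It set 1 MYC-PyMT sample beside 1 control-PyMT sample. MYC-PyMT mice carried S100a8-cre, whose promoter is active in neutrophils and their precursors, with Rosa26-LSL-MYC, a MYC allele that cre switches on. Both samples are labelled as backcrossed to B6 and shared every other step: irradiation at 7 weeks of age, 3000000 marrow cells from Fcgr1-cre donors with a Rosa26 LSL-H2B-mCherry allele, a low protein diet from 2 weeks later, and 6 weeks on that diet. The number of mice behind each sample is not given in the sources used here. The marrow donors are labelled with no MYC allele and no PyMT, and the sort for mCherry took nuclei with a history of Fcgr1 expression. Whole cells were first sorted as living CD45+ F4/80+ Vcam+ cells lacking Siglec-F, Ly6G, B220 and Ly6C, and nuclei were then sorted as mCherry+ CD11b- SYTO9+.

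Tissue-resident macrophages settle in organs and clear debris, proteins and iron through scavenger and endocytic receptors. Monocytes enter from blood, carry Ccr2 and matrix-related genes such as Vcan and Fn1, and can take on macrophage genes in tissue. In mammary gland and many other mouse tissues, macrophages with Lyve1, Folr2, Mrc1 and Cd163 are known as a resident, perivascular or stromal type. F13a1 is used as a gene of both monocytes and such macrophages.

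Mrc1 encodes the mannose receptor, Cd163 the haemoglobin-haptoglobin receptor, Lyve1 a hyaluronan receptor and Folr2 a folate receptor. Maf encodes a transcription factor of macrophages, F13a1 the A subunit of coagulation factor XIII, and Retnla a secreted protein induced by interleukin 4. Ednrb encodes the endothelin B receptor, and Ms4a8a a membrane protein of the MS4A family that has been found in alternatively activated mouse macrophages. The members lie on separate chromosomes except Lyve1 and Folr2, which are both on chromosome 7. Coordinates are of GRCm38, and all 9 are protein coding. Mrc1 lies at chr2:14229392-14332057 on the plus strand, F13a1 at chr13:36867178-37050244 on the minus strand, Ednrb at chr14:103814625-103844402 on the minus strand and Retnla at chr16:48842551-48844461 on the plus strand. The span of F13a1 is 183067 bases and that of Retnla 1911 bases. Counts in nuclei include unspliced RNA where introns are counted, so levels are compared between nuclei for each gene and not between genes.

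The promoters of 4 members are shown because these genes were seen in the same nuclei: Mrc1 and F13a1 as the most widely detected, Ednrb as the gene most tightly tied to F13a1, and Retnla as a target of interleukin 4 signalling. Each window, from RefSeq on GRCm38.p6, runs from 250 bases before to 50 bases after the RefSeq start, 5′ to 3′ on the strand of the gene. The RefSeq start of Ednrb lies inside the gene span given above, so its window does too. Capitals mark GAGGAA, the core bound by PU.1 (a macrophage transcription factor), TGCTGA, a half-site bound by MAF, and TTCNNNNGAA, a site bound by STAT6, each on either strand, so that TTCCTC and TCAGCA are the other-strand forms. No match overlapped another. The windows are chr2:14229164-14229463 for Mrc1, chr13:37050195-37050494 for F13a1, chr14:103843652-103843951 for Ednrb and chr16:48842359-48842658 for Retnla.
Mrc1: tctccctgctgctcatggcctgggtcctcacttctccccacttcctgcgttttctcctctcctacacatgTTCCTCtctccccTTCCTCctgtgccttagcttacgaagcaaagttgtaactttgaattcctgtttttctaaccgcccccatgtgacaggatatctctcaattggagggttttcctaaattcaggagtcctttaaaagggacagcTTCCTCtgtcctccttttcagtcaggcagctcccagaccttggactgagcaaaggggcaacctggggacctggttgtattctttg
F13a1: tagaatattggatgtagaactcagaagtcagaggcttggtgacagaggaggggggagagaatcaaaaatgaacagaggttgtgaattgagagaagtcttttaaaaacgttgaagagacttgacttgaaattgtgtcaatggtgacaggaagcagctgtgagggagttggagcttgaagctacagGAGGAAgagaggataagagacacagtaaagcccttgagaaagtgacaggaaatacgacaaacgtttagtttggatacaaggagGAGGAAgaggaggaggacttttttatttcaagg
Ednrb: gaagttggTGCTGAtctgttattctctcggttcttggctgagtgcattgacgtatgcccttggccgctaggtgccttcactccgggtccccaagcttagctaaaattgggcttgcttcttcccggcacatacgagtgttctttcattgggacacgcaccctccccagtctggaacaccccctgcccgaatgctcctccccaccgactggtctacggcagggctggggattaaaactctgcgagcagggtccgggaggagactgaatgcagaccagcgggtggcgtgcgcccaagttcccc
Retnla: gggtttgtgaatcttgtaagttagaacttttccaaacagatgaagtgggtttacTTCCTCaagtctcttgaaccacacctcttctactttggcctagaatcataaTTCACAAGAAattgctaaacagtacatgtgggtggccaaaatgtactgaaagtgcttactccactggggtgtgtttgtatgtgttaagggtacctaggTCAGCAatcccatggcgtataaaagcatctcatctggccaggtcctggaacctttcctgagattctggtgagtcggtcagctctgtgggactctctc
Windows were found for 7 of the 9 members, and for F13a1 and Folr2 there were 2 each. Lyve1 and Maf were not matched. TGCTGA was in a window of 4 of the 7 members (Ednrb, Folr2, Ms4a8a and Retnla), and in 19.5% of the 32851 promoters in the table. GAGGAA was in a window of 3 of the 7 (F13a1, Mrc1 and Retnla), and in 28.3% of all promoters. TTCNNNNGAA was in the Retnla window alone among the 7, from 145 to 136 bases before the start, and in 6.95% of all promoters. These matches are letters in a window and do not show binding.

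The barcodes carried the suffix 2 or 1 for the 2 wells, and no label ties a well to a genotype, so every value below is that of an unmapped well. Well 2 had 455 barcodes with a median of 2834 unique molecular identifiers (UMIs), and well 1 had 1383 barcodes with a median of 2487. After filtering, 1812 nuclei formed 8 clusters, from which the members had been left out as variable genes. Macrophage markers defined clusters 1, 2 and 3, with 9, 9 and 8 of 11 markers counted. These clusters held 380 nuclei of well 2, of which 363 were in cluster 2, and 866 nuclei of well 1, of which 537 were in cluster 1 and 310 in cluster 3. A cluster drawn mostly from 1 library may be that library and not a cell state. Clusters 5, 6 and 7 had epithelial markers, although the sort was for TAMs, and served as the level of free RNA. Epithelial markers summed to 55.3 CPM (UMIs of a gene over all UMIs of the nuclei summed, as a rate) in macrophage-marker nuclei of well 2 and to 540 CPM in those of well 1. The wells also differed in sex-linked RNA. Uty, a Y-linked gene, was at 355 CPM in macrophage-marker nuclei of well 2 and had 0 UMIs in those of well 1. Xist, the RNA of the inactive X chromosome, was at 5.61 CPM in those of well 2 and at 1846 CPM in those of well 1. Well, sex-linked RNA and any effect of genotype cannot be told apart. Across wells 9 barcode sequences occurred in both.

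The members were higher in macrophage-marker nuclei of well 2 than in those of well 1. How many of all genes were higher in well 2 was not counted, so nothing is read from the number of members. The summed level of the members was 4059 CPM in well 2 and 288 CPM in well 1, and 36.7 CPM in epithelial-marker nuclei of both wells. F13a1 had 1632 UMIs in well 2, or 1309 CPM (1246 to 1374), and 52 UMIs in well 1, or 19.4 CPM (14.5 to 25.4). Intervals are exact 95% intervals that cover counting error only. The level of F13a1 in epithelial-marker nuclei was 9.34 CPM (6.25 to 13.4), from 29 UMIs in 7 nuclei of which 1 nucleus held 23. Mrc1 was at 1518 CPM (1450 to 1588) in well 2 and at 140 CPM (126 to 154) in well 1. Maf was at 677 CPM (632 to 724) in well 2 and at 123 CPM (110.3 to 137) in well 1. Mrc1 and Maf thus had levels in well 1 well over those of epithelial-marker nuclei, which was 5.47 CPM for Mrc1 and 13.2 CPM for Maf. In bulk sums, fewer nuclei with a gene and less RNA per nucleus cannot be told apart, and the shares of nuclei given below address that.

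The remaining 6 members were scarce in both wells. Lyve1 had 95 UMIs in well 2, or 76.2 CPM (61.6 to 93.1), and 0 UMIs in well 1, where 3 counts would make 1.12 CPM. Cd163 was at 93.0 CPM (76.9 to 112) in well 2, with 2 UMIs in well 1. Folr2 was at 28.1 CPM (19.6 to 39.0) in well 2, also with 2 UMIs in well 1. The 3 scavenger receptors were therefore close to absent from the counts of well 1. Retnla was at 115 CPM (96.7 to 135) in well 2 and Ednrb at 154 CPM (133 to 177), each with 1 UMI in well 1. Ms4a8a was at 89.8 CPM (74.0 to 108) in well 2 and at 3.35 CPM (1.53 to 6.36) in well 1, from 9 UMIs. In epithelial-marker nuclei Cd163 was at 2.90 CPM, Folr2 at 2.25 CPM and Ednrb at 3.22 CPM, and Retnla and Ms4a8a had 0 UMIs. The few UMIs of Cd163, Folr2 and Ednrb in well 1 thus did not exceed the level in epithelial-marker nuclei. For Ednrb that level rests on 10 UMIs in 2 nuclei, with up to 6 in 1.

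**Figure D1:**
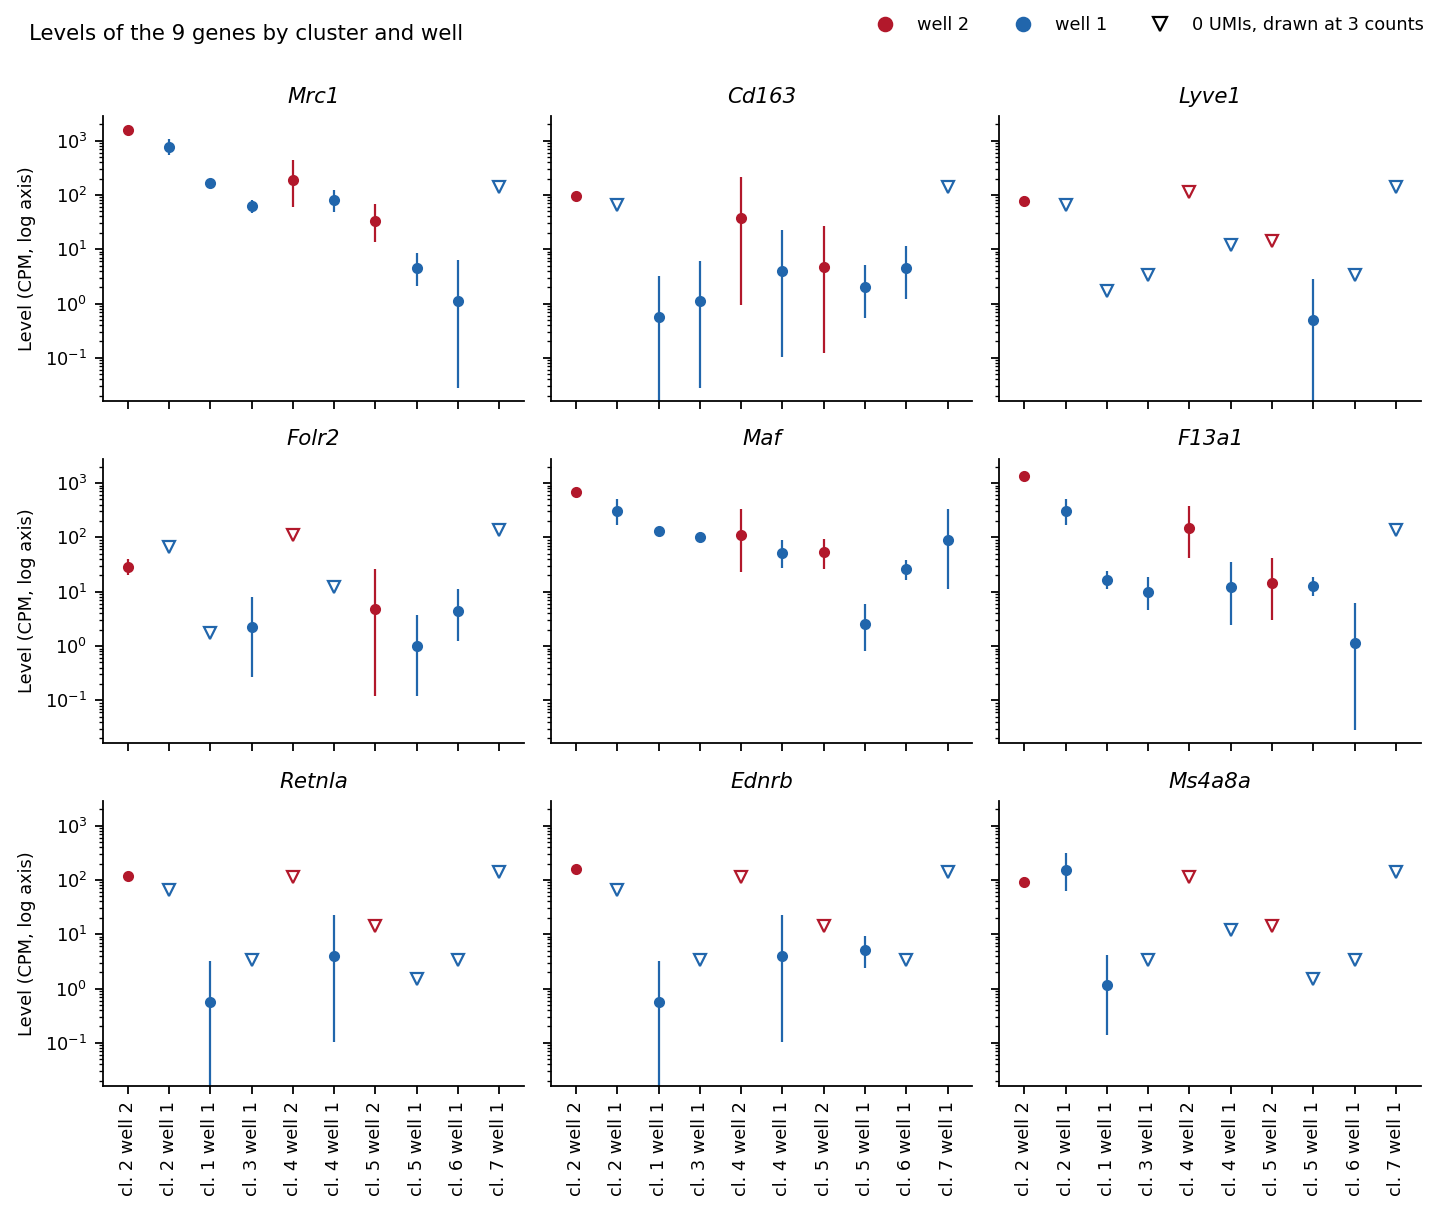
Level of each member in CPM, on a log axis, in each group of a cluster and a well with at least 20 nuclei, and in the 19 nuclei of cluster 2 in well 1. Dots are counts summed over nuclei, bars are exact 95% Poisson intervals of counting error, and open triangles are groups with 0 UMIs drawn at 3 counts, and some intervals run below the axis. The nuclei of cluster 2 in well 2 are the highest of the groups with a UMI for every member except Ms4a8a, for which the 19 nuclei of cluster 2 in well 1 are higher, and Mrc1 and Maf fall less steeply across the other groups than Lyve1, Retnla or Ednrb.

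Within well 1, Mrc1 was at 163 CPM (145 to 184) in cluster 1 and at 62.0 CPM (46.9 to 80.6) in cluster 3. Maf was at 129 CPM (113 to 147) in cluster 1 and at 103 CPM (83.2 to 126) in cluster 3, so the 2 clusters differed by more than counting error in Mrc1 and not in Maf. The 19 nuclei of well 1 that fell in cluster 2 held 35 UMIs of Mrc1, against 71.0 expected at the level of well 2 nuclei of that cluster. F13a1 had 14 UMIs against 61.4 expected, and Maf 14 against 31.6. For Ednrb, Retnla, Cd163, Lyve1 and Folr2 together, 0 UMIs were seen in these 19 nuclei, with 7.22, 5.38, 4.36, 3.57 and 1.32 expected in that order. Ccr2, a chemokine receptor of monocytes, had 36 UMIs against 21.1 expected (ratio 1.71, 1.18 to 2.39). Fn1 had 23 UMIs against 35.2 expected, Vcan 2 against 4.70 and Ms4a8a 7 against 4.21. For Lyve1 and Folr2 the expected numbers are too small for a count of 0 to show a lower level. UMIs of a gene sit in few nuclei, so that these intervals understate the spread between nuclei.

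Members differed in how their molecules were spread over the 380 macrophage-marker nuclei of well 2. Mrc1 was seen in 234 nuclei, Maf in 197 and F13a1 in 171. The 5 nuclei with the most UMIs held 18.3% of those of Mrc1, 13.9% of those of Maf and 19.5% of those of F13a1. The scarce members had a larger share of their UMIs in 5 nuclei. Retnla was seen in 30 nuclei, with up to 31 UMIs in 1 nucleus and 59.4% of its UMIs in 5 nuclei. Cd163 was seen in 34 nuclei with 51.7% in 5, and Folr2 in 22 nuclei with 48.6% in 5. Lyve1 was seen in 29 nuclei with 46.3% of its UMIs in 5, Ednrb in 35 with 44.3%, and Ms4a8a in 47 with 38.4%. Of the 22 nuclei with Folr2, 16 held 1 UMI, so a low level in many nuclei cannot be told apart from a few positive nuclei there.

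To compare nuclei at 1 depth, each was thinned at random to 1000 UMIs, which left 356 macrophage-marker nuclei of well 2 and 811 of well 1. Mrc1 was then detected in 48.9% (43.6 to 54.2) of well 2 nuclei and in 9.0% (7.12 to 11.2) of well 1 nuclei, against 61.6% in well 2 and 16.4% in well 1 before thinning. F13a1 was detected in 38.5% (33.4 to 43.8) of well 2 nuclei and in 1.48% (0.767 to 2.57) of well 1 nuclei. Maf was detected in 34.3% of well 2 nuclei and in 10.2% of well 1 nuclei. In 253 epithelial-marker nuclei, which should lack these genes, the shares were 0.791% for Mrc1, 0.395% for F13a1 and 1.19% for Maf. The share of F13a1 in well 1 overlapped this background within counting error. Unthinned median depths were 2875.5 UMIs in well 2 and 2754.5 in well 1 macrophage-marker nuclei, and 4679 UMIs in epithelial-marker nuclei.

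After thinning, the scarce members were seen in 0.843% to 5.62% of well 2 nuclei and in at most 0.370% of well 1 nuclei. Lyve1 and Ednrb were seen in 0 of 811 well 1 nuclei, so their share with a UMI at this depth was up to 0.370% at 3 counts, or 0.454% by the exact interval. Before thinning Ednrb was seen in 1 nucleus of well 1. Of the genes linked to monocytes, Ccr2 was detected in 25.3% of well 2 nuclei and in 2.22% of well 1 nuclei. Fn1, which encodes fibronectin, was detected in 24.4% of well 2 nuclei and in 1.73% of well 1 nuclei, beside 3.95% of epithelial-marker nuclei. Vcan, which encodes versican, was detected in 5.06% of well 2 nuclei and in 0.247% of well 1 nuclei. Well 2 was therefore the higher well for resident genes and monocyte genes alike, which is why co-detection was counted within wells.

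**Figure D2:**
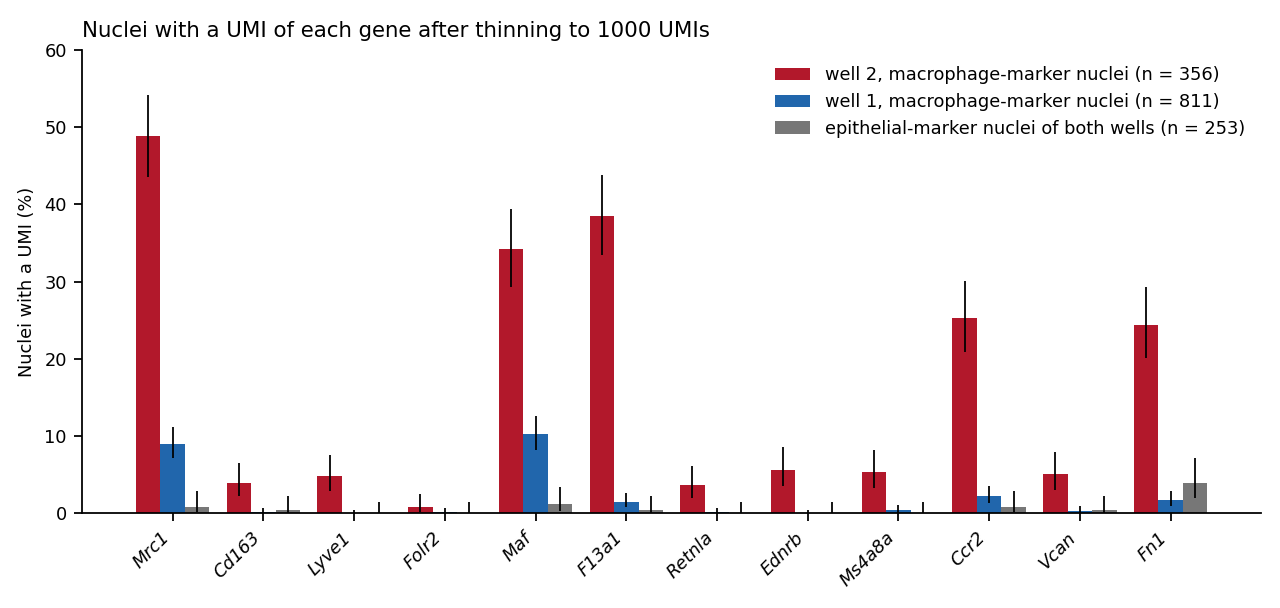
Percentage of nuclei with at least 1 UMI of each member and of Ccr2, Vcan and Fn1 after thinning to 1000 UMIs. Bars start at 0, red bars are macrophage-marker nuclei of well 2, blue bars those of well 1 and grey bars epithelial-marker nuclei, and lines are exact 95% Clopper-Pearson intervals. Mrc1, Maf and F13a1 stand out in well 2, and in well 1 Mrc1 and Maf alone stand clear of the grey bars.

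Co-detection was measured as the number of nuclei with both genes over the number that the product of the 2 shares gives within a well, so that 1 stands for independence. The interval of this ratio covers the joint count alone and does not hold the 2 shares fixed. It is therefore wide, can run past the highest possible ratio, and does not show independence where it includes 1. Of 66 pairs of the 9 members with Ccr2, Vcan and Fn1, 40 had at least 2 expected nuclei in well 2 and 1 had in well 1. F13a1 and Mrc1 were seen together in 105 nuclei of well 2 against 67.0 expected, a ratio of 1.57 (1.32 to 1.84). F13a1 and Maf were seen together in 83 nuclei against 46.9 expected, a ratio of 1.77. Mrc1 and Maf shared 88 nuclei, a ratio of 1.48. The 3 widely detected members were thus found in the same nuclei more often than independence gives. The members were chosen from earlier results on these nuclei, so this is a description and not independent support.

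Ednrb and Lyve1 fell almost wholly inside the F13a1 and Mrc1 nuclei, and the other scarce members less so. All 20 nuclei with Ednrb held F13a1, a ratio of 2.60, which is the highest that 137 F13a1 nuclei of 356 allow, and 19 of the 20 held Mrc1. Of 17 nuclei with Lyve1, 16 held F13a1, a ratio of 2.45 (1.41 to 3.92), and 16 held Mrc1. Cd163 was seen with F13a1 in 11 of 14 nuclei, a ratio of 2.04. Ms4a8a was seen with F13a1 in 14 of 19 nuclei, a ratio of 1.91, and with Mrc1 in 12 of 19, a ratio of 1.29 (0.672 to 2.23). Retnla was seen with F13a1 in 9 of 13, a ratio of 1.80 (0.827 to 3.38). For Retnla with F13a1 and for Ms4a8a with Mrc1 the interval includes independence. Folr2 was seen in 3 thinned nuclei, too few for a ratio.

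Without thinning, both the shares of joint detection and the share of F13a1 itself were higher. All 35 nuclei with Ednrb and all 29 nuclei with Lyve1 held F13a1, while 45% of the 380 nuclei did. Folr2 nuclei held F13a1 in 19 of 22 and Cd163 nuclei in 29 of 34. Nuclei with Lyve1 had a median of 4784 UMIs and those with Ednrb 3890, against 2875.5 over all 380, and deeper nuclei show more genes. Among the 6 scarce members Retnla had the lowest share with F13a1, in 21 of 30 nuclei, while 28 of the 30 held Mrc1.

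The scarce members also met each other, in small numbers. Lyve1 and Ednrb were seen together in 8 thinned nuclei against 0.955 expected. Lyve1 and Retnla shared 7 nuclei against 0.621 expected, and Retnla and Ednrb shared 7 against 0.730 expected. So Lyve1, Ednrb and Retnla overlapped in a handful of nuclei. Lyve1 and Cd163 shared 3 nuclei against 0.669 expected, and Cd163 and Ednrb 4 against 0.787. Their expected numbers are under 2, and no weight can be put on the order of such ratios.

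Pairs that join a member to a monocyte gene were mostly nearer to independence. F13a1 and Ccr2 were seen together in 43 nuclei against 34.6 expected, a ratio of 1.24 (0.913 to 1.64), and F13a1 and Fn1 in 40 nuclei, a ratio of 1.19 (0.867 to 1.59). F13a1 and Vcan shared 13 of 18 Vcan nuclei, a ratio of 1.88 (1.01 to 3.17). The ratio of Vcan was the highest of the 3, with an interval that overlaps those of Ccr2 and Fn1. Mrc1 with Ccr2 had a ratio of 1.30 (1.0 to 1.64), Mrc1 with Fn1 1.08, Maf with Ccr2 1.07 and Maf with Fn1 0.805. Vcan shared 0 nuclei with Lyve1 and 0 with Cd163, where 0.860 and 0.708 were expected, which is too few to read. Some pairs of scarce members were higher. Ms4a8a with Ccr2 was at 2.08 from 10 nuclei and Ms4a8a with Fn1 at 1.94 from 9. Retnla with Fn1 was at 1.89 from 6, Ednrb with Ccr2 at 1.78 from 9 and Retnla with Ccr2 at 1.52 from 5. Of these, the interval lay above 1 for Ms4a8a with Ccr2 alone. Cd163 with Ccr2 (0.565) and Lyve1 with Fn1 (0.722) were under 1.

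By kind of pair, 7 pairs of F13a1 with another member had ratios from 1.57 to 2.60 with a median of 1.91, and in 6 the interval lay above 1. The 11 pairs of members other than F13a1 ran from 1.29 to 2.23, with a median of 1.84, and in 5 the interval lay above 1. Against these, 16 pairs of such a member with Ccr2, Vcan or Fn1 ran from 0.565 to 2.08, with a median of 1.21, and 12 of them were above 1, in 2 with the interval above 1. The 3 pairs among Ccr2, Vcan and Fn1 had ratios from 1.36 to 3.41. Pairs share genes and nuclei, and the members were chosen from earlier results on these nuclei, so these medians are a description.

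**Figure D3:**
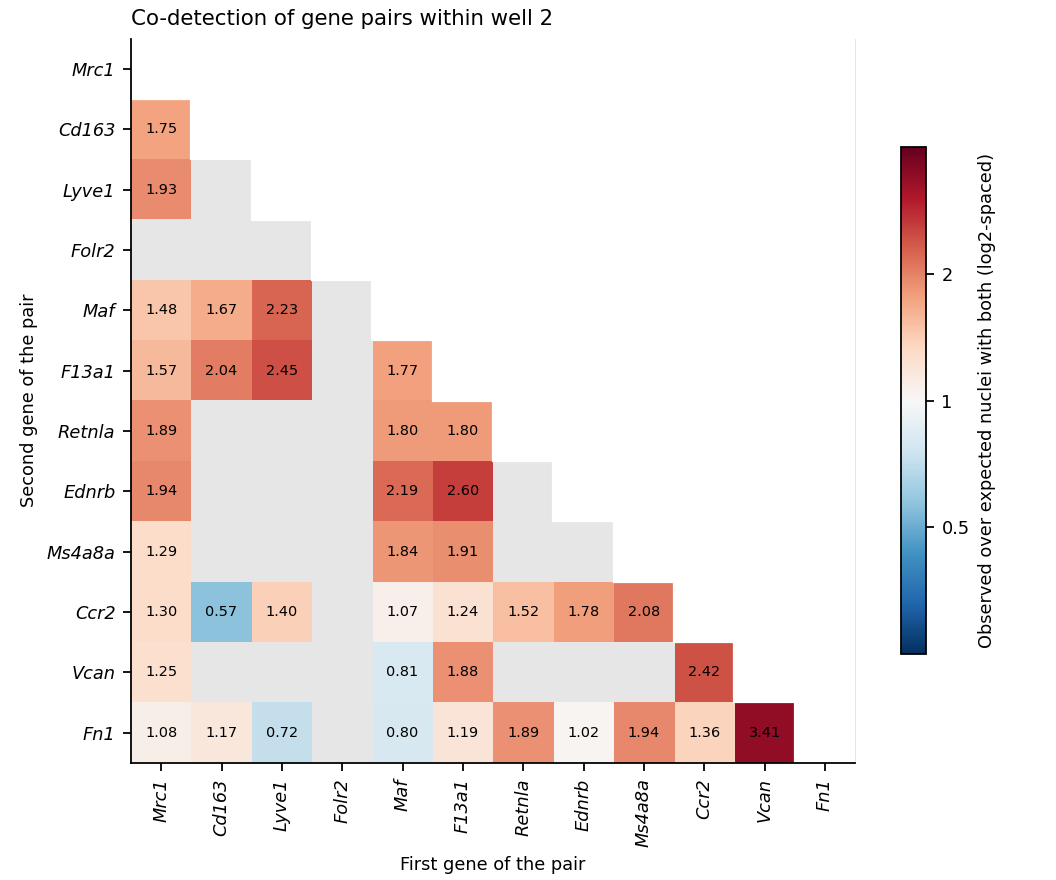
Observed over expected number of nuclei with both genes, for pairs of members and of Ccr2, Vcan and Fn1 in 356 macrophage-marker nuclei of well 2 after thinning to 1000 UMIs, coloured on a log2 scale from blue (under 1) to red (over 1). Grey cells had under 2 expected nuclei. F13a1 is red with every member shown, from 1.57 with Mrc1 to 2.60 with Ednrb, and the rows of Ccr2, Vcan and Fn1 are paler against Mrc1 and Maf.

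Counted by nucleus, 59.0% of the 356 nuclei of well 2 held a resident gene (Mrc1, Cd163, Lyve1, Folr2 or Maf), 38.5% held F13a1 and 41.3% held Ccr2, Vcan or Fn1. A resident gene and F13a1 were together in 118 nuclei (33.1%), F13a1 was without a resident gene in 19 (5.34%), and a resident gene was without F13a1 in 92 (25.8%). Of the 137 F13a1 nuclei, 68 also held a monocyte gene. All 3 kinds met in 54 nuclei (15.2%), and 87 nuclei (24.4%) held none. F13a1 was thus largely nested within the resident genes, whereas monocyte genes ran across both, though not evenly. Of the 19 F13a1 nuclei without a resident gene, 14 held a monocyte gene, beside 54 of the 118 F13a1 nuclei with a resident gene. In well 1, 138 of 811 nuclei (17.0%) held a resident gene, 12 held F13a1, 32 (3.95%) held a monocyte gene, and 1 nucleus held all 3 kinds. Of the 12 F13a1 nuclei of well 1, 8 held a resident gene. Mrc1 was in 7 of the 12 against 1.08 expected, a ratio of 6.48 (2.61 to 13.3), and Mrc1 and Maf shared 19 nuclei of well 1, a ratio of 2.54 (1.54 to 3.95). Mrc1 and Ccr2 shared 6 nuclei of well 1 against 1.62 expected, a ratio of 3.70 (1.36 to 8.03). In well 1 only Mrc1 with Maf had 2 or more expected nuclei, so the other 2 ratios rest on few.

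Splitting the well 2 nuclei by F13a1 gave 137 positive nuclei with a median depth of 3110 UMIs and 219 negative nuclei with 3003 UMIs. Mrc1 was detected in 76.6% (68.7 to 83.4) of F13a1-positive nuclei and in 31.5% of F13a1-negative nuclei, and Maf in 60.6% of positive and 17.8% of negative nuclei. Ednrb was detected in 14.6% of positive and 0% of negative nuclei, and Lyve1 in 11.7% of positive and 0.457% of negative nuclei. Ccr2 was detected in 31.4% of F13a1-positive nuclei and in 21.5% of F13a1-negative nuclei, and Fn1 in 29.2% of positive and 21.5% of negative nuclei. Vcan was detected in 9.49% (5.15 to 15.7) of positive and 2.28% (0.745 to 5.25) of negative nuclei. The shares differed less for Ccr2 and Fn1 than for Mrc1 and Maf. As a ratio of positive to negative share, this did not hold for Vcan.

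On the level scale, counts were summed over each side of the split and compared as a ratio of CPM. Of the 8 members besides F13a1, 6 had the 100 UMIs needed for the count, and all 6 were at 1.5 times or more in F13a1-positive nuclei, beside 11.8% of 2955 genes tested. Ednrb, Cd163, Retnla and Ms4a8a reached 100 UMIs only through the F13a1-positive side, so nothing is read from that count. The same limit holds for the counts over other lists given below. Mrc1 was at 2900 CPM in F13a1-positive nuclei and at 645 CPM in F13a1-negative nuclei, a ratio of 4.50 (4.05 to 5.0). Maf was at 1373 CPM in positive and 236 CPM in negative nuclei, a ratio of 5.82 (4.92 to 6.91). Cd163 was at 220 CPM in positive and 12.1 CPM in negative nuclei, a ratio of 18.2 (9.23 to 40.9). Thus Mrc1 and Maf kept a base level in F13a1-negative nuclei, and Cd163 little. The split was set on thinned counts, so the F13a1-negative nuclei still held 67 UMIs of F13a1, or 89.8 CPM. Ednrb had 185 UMIs in positive and 5 in negative nuclei, a ratio of 57.2 (24.1 to 178). Retnla was at 244 CPM in positive and 25.5 CPM in negative nuclei, a ratio of 9.59 (5.88 to 16.5). Ms4a8a was at 184 CPM in positive and 26.8 CPM in negative nuclei, a ratio of 6.87 (4.20 to 11.8).

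Lyve1 and Folr2 had under 100 UMIs. Lyve1 had 94 UMIs in F13a1-positive nuclei and 1 in F13a1-negative nuclei, a ratio of 145 (25.4 to 5795), and Folr2 had 30 in positive and 5 in negative nuclei, a ratio of 9.27 (3.56 to 30.6). Over the alternatives the ratio ran from 9.39 to 32.9 for Cd163 and from 5.29 to 16.4 for Folr2. Thinning to 2000 UMIs gave a ratio of 145 for Retnla, and the ratio of Retnla was 5.60 without the 5 nuclei richest in member UMIs. With Mrc1 in place of F13a1 as the dividing gene, Ednrb was 10.5 times, Lyve1 13.8 times and Ms4a8a 2.52 times as high in positive as in negative nuclei.

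Several other genes of resident macrophages were also higher in F13a1-positive nuclei of well 2. Of 24 listed, 12 had 100 UMIs, of which 9 were at 1.5 times or more in F13a1-positive nuclei and 0 at the inverse or less. Of all genes tested, 11.8% were at 1.5 times or more and 15.1% at the inverse or less. Clec10a, Fcgrt, Gas6, Pf4 and Cd36 reached 100 UMIs only through the F13a1-positive side. Clec10a, a lectin of alternatively activated macrophages and dendritic cells, had a ratio of 8.54 (5.06 to 15.3), Fcgrt, the neonatal Fc receptor, 5.61, and Gas6, a bridge to dying cells, 5.10. Selenop, a selenium carrier, had 4.88, the chemokine Pf4 4.36, the ectoenzyme Cd38 3.82 and the lipid scavenger Cd36 3.81. Cbr2, a carbonyl reductase known from resident macrophages, had 52 UMIs in F13a1-positive nuclei and 3 in F13a1-negative nuclei. Siglec1, the sialoadhesin of tissue macrophages, had 41 in positive and 10 in negative nuclei. Igf1 was at a ratio of 0.840 (0.616 to 1.14), and Csf1r, the receptor that all macrophages need, at 1.34. Slc40a1 went the other way, with 4 UMIs in F13a1-positive nuclei and 20 in F13a1-negative nuclei, a ratio of 0.309 (0.0768 to 0.922). Mgl2, a close paralog of Clec10a, had 3 UMIs in F13a1-positive nuclei and 30 in F13a1-negative nuclei, with 82.4% of its UMIs in 5 nuclei. Reads shared between these paralogs could be split by the counting. Timd4, Marco, Cd209b, Cd209f and Cd209g, other genes of resident macrophages, had 0 UMIs in these nuclei.

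Of 12 monocyte genes, 5 had 100 UMIs, and 4 of these were at 1.5 times or more in F13a1-positive nuclei, beside 11.8% of all genes tested. Vcan and S100a4 had under 100 UMIs on the F13a1-negative side, so nothing is read from that count. Vcan was at 182 CPM in F13a1-positive nuclei and at 46.9 CPM in F13a1-negative nuclei, a ratio of 3.88 (2.60 to 5.92). In macrophage-marker nuclei of well 2, 49.6% of the Vcan UMIs were in 5 nuclei. For Fn1 the share in 5 nuclei was 26.6%, with up to 84 UMIs in 1 nucleus. Fn1 was at 1089 CPM in positive and 510 CPM in negative nuclei, a ratio of 2.14 (1.87 to 2.45), which was 0.982 when nuclei were thinned to 500 UMIs. Itgam, which encodes CD11b, had a ratio of 2.01 (1.69 to 2.40). Ccr2 was at 534 CPM in positive and 401 CPM in negative nuclei, a ratio of 1.33 (1.12 to 1.58), which was 1.05 at 500 UMIs and 2.20 with Mrc1 as the dividing gene. The monocyte genes with 100 UMIs were therefore also higher on the F13a1 side, with ratios under that of every member. The interval of Vcan includes the ratio of Mrc1 (4.50), so for Vcan this difference lies within counting error. Ly6c2, whose protein was gated against, had 0 UMIs in F13a1-positive nuclei and 2 in F13a1-negative nuclei.

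Several TAM genes went the other way. Of 8 listed, 6 had 100 UMIs, and 5 of these were at the inverse of 1.5 or less, beside 15.1% of all genes tested. Gpnmb and Mmp12 reached 100 UMIs only through the F13a1-negative side. Gpnmb, a glycoprotein of lipid-laden macrophages, had 5 UMIs in F13a1-positive nuclei and 388 in F13a1-negative nuclei, a ratio of 0.0199 (0.00643 to 0.0469). Mmp12, macrophage elastase, had 4 UMIs in positive and 139 in negative nuclei, a ratio of 0.0445. Cx3cr1, the fractalkine receptor, had a ratio of 0.338 and Mmp14, a membrane-bound metalloproteinase, 0.294. The F13a1-positive and Gpnmb or Mmp12 nuclei of well 2 were thus largely separate. Of the Gpnmb and Mmp12 UMIs of well 2, 66.4% and 53.5% were in 5 nuclei each. Trem2, a lipid receptor, had a ratio of 1.25 (0.841 to 1.84). Uty had a ratio of 0.961 (0.788 to 1.17), so that nuclei with and without F13a1 did not differ in this Y-linked gene by more than counting error.

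**Figure D4:**
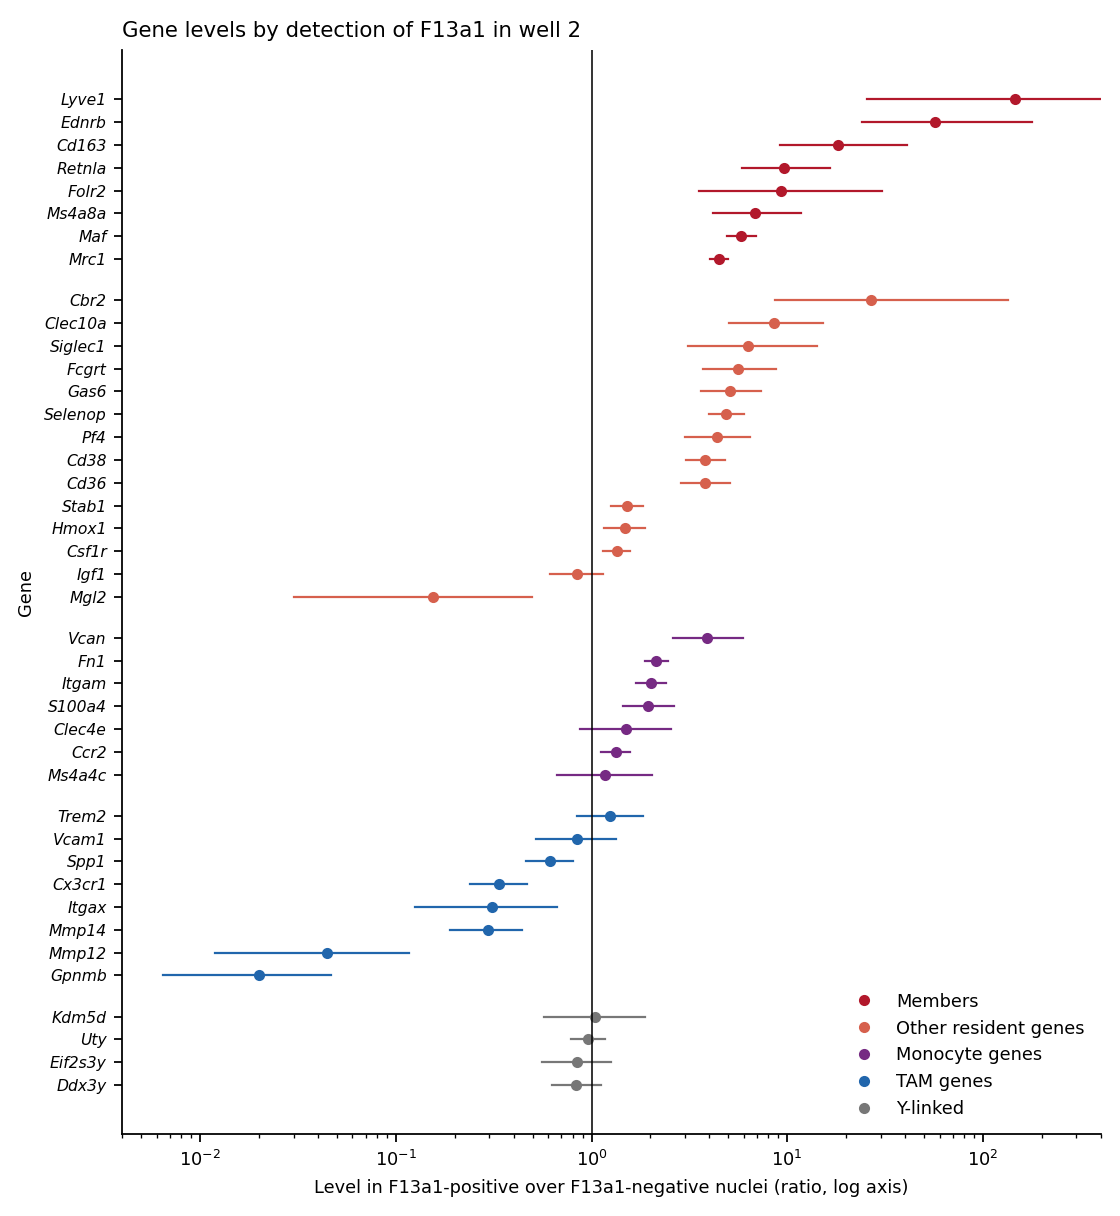
Ratio of the level in F13a1-positive nuclei (n = 137) to that in F13a1-negative nuclei (n = 219) of well 2, on a log axis, for the reported genes of each list with at least 30 UMIs and a UMI on both sides. Dots are ratios and lines exact conditional 95% intervals of counting error, cut at the edge of the plot for Lyve1. Members lie from 4.50 (Mrc1) to 145 (Lyve1), monocyte genes between 1.17 (Ms4a4c) and 3.88 (Vcan), Gpnmb and Mmp12 under 0.05, and Y-linked genes at about 1.

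Alternative activation, the program of interleukin 4 to which Retnla belongs, was not seen as a whole. Of 12 listed genes, 3 had 100 UMIs: Il4ra, a receptor subunit of interleukin 4, had a ratio of 1.51 (1.20 to 1.89), its signal transducer Stat6 1.33 (0.894 to 1.98) and the nuclear receptor Pparg 0.555 (0.359 to 0.840). Arg1 had 5 UMIs in F13a1-positive nuclei and 7 in F13a1-negative nuclei, and the chemokine Ccl24 had 22 in positive and 0 in negative nuclei. Chil3, which is listed for monocytes as well, had 20 in positive and 3 in negative nuclei. Close paralogs of members differed among themselves. Ms4a4a had a ratio of 3.34 (2.41 to 4.67) and Ms4a6b 2.49, whereas Ms4a7 had 0.589 (0.449 to 0.768). Stab1, one of the other resident macrophage genes above, is a hyaluronan and scavenger receptor and no close paralog, and had 1.52. Folr1, Retnlb and Retnlg had 0 UMIs.

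Apart from the lists, the 10 genes with the highest lower bound of the ratio were Saa3, Ccl6, Tns1, C4b, Clec10a, Ccl9, Selenop, Ripor2, Wwp1 and Fcgrt. Saa3, an acute-phase protein, had 97 UMIs in F13a1-positive nuclei and 4 in F13a1-negative nuclei, a ratio of 37.5 (14.2 to 140), but 77.5% of its UMIs were in 5 nuclei. The chemokine Ccl6 was at 847 CPM in positive and 95.2 CPM in negative nuclei, a ratio of 8.90 (6.90 to 11.6), over 116 nuclei. Ccl9, a related chemokine, had a ratio of 5.29, and the complement component C4b 8.10. The secreted products Ccl6, Ccl9 and C4b were therefore spread over many more nuclei than Saa3.

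When nuclei of well 2 were sorted by both Mrc1 and F13a1, 105 held both genes, 32 F13a1 only, 69 Mrc1 only and 150 neither, with median depths of 3222, 2372, 2666 and 3109 UMIs. The groups were set on thinned counts and the levels use all UMIs, so the F13a1-only nuclei still held Mrc1 at 630 CPM and the Mrc1-only nuclei F13a1 at 206 CPM. Lyve1 was at 227 CPM in nuclei with both, 70.0 CPM with F13a1 only, 4.91 CPM with Mrc1 only and 0 CPM with neither. Ednrb followed the same order, at 444, 150, 9.81 and 5.54 CPM. Cd163 was at 256, 80.0, 24.5 and 7.38 CPM. These 3 genes were lower in nuclei with Mrc1 only than in nuclei with F13a1 only. The F13a1-only group holds 7 UMIs of Lyve1, 15 of Ednrb and 8 of Cd163, and the Mrc1-only group 1, 2 and 5. Retnla departed from this, at 298 CPM with both, 40.0 CPM with F13a1 only and 63.8 CPM with Mrc1 only, from 4 UMIs in the F13a1-only nuclei.

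The monocyte genes had another order. Ccr2 was at 533 CPM in nuclei with both genes, 540 CPM with F13a1 only, 824 CPM with Mrc1 only and 242 CPM with neither. Vcan was at 144, 330 CPM, 132 and 14.8 CPM in that order, and Fn1 at 985, 1490 CPM, 701 and 437 CPM. Ccr2 was thus highest in the Mrc1-only group, and Vcan and Fn1 in the F13a1-only group. The F13a1-only group had 33 UMIs of Vcan and 149 of Fn1 in 32 nuclei, so a few nuclei may set this order. Mmp12 was at 7.84, 10.00, 29.4 and 245 CPM, and Cx3cr1 at 99.3, 80.0, 289 and 279 CPM. Uty stood between 260 and 371 CPM in all 4 groups.

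By the number of members detected in a nucleus, 125 of the 356 well 2 nuclei held 0, 86 held 1, 60 held 2, 51 held 3 and 34 held 4 or more, with up to 7. In well 1, 667 of 811 held 0 and 5 held 3, the highest number there. Ccr2 was detected in 16%, 24.4%, 35%, 33.3% and 32.4% of well 2 nuclei with 0, 1, 2, 3 and 4 or more members. Fn1 was detected in 16.8%, 30.2%, 35%, 23.5% and 20.6%. Neither gene fell to 0 in nuclei with the most members. Cx3cr1 was detected in 23.2%, 19.8%, 20%, 9.80% and 2.94%, so its share was lowest where most members were seen. Csf1r was detected in 35.2% of nuclei with 0 members and in 35.3% of those with 4 or more.

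**Figure D5:**
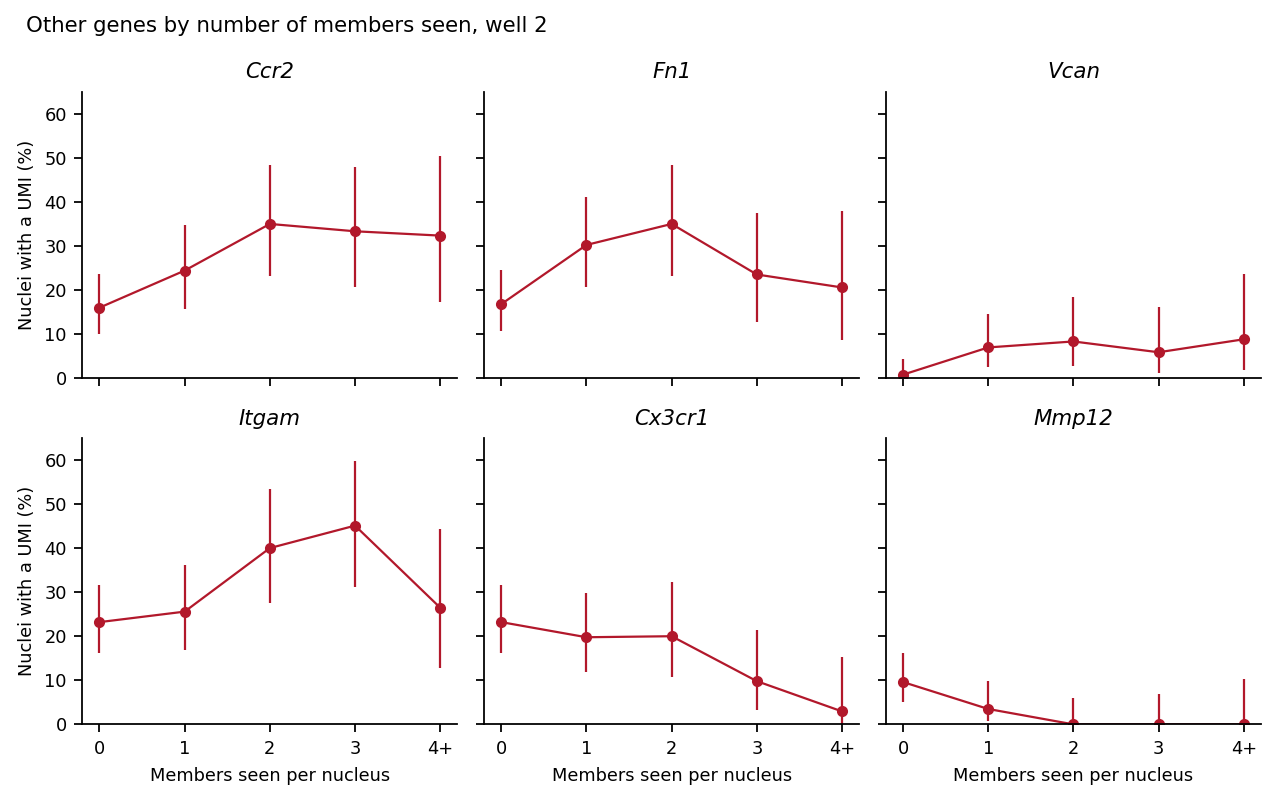
Percentage of well 2 macrophage-marker nuclei with a UMI of Ccr2, Fn1, Vcan, Itgam, Cx3cr1 and Mmp12, after thinning to 1000 UMIs, by the number of the 9 members detected in the nucleus (125, 86, 60, 51 and 34 nuclei from left to right). Points are shares and bars exact 95% Clopper-Pearson intervals. Ccr2 lies between 32.4% and 35% at 2 or more members, and Cx3cr1 is at 23.2% with 0 members and 2.94% with 4 or more.

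Over the 9 groups of cluster and well with at least 20 nuclei, the genes whose levels were most like the summed members, by Pearson correlation of log2(CPM + 10), were Cd38 (0.959), Ccl9 (0.957), Ccl6 (0.955), Atp8b4 (0.947), Cd93 (0.945), C5ar1 (0.935), AB124611 (0.925), Adam8 (0.922), Fcrls (0.921) and Lyz2 (0.919). The groups share 2 libraries, and the correlation is a description. Cd38 was at 302 CPM in cluster 2 of well 2 and at 35.1 CPM in cluster 1 of well 1. Ccl6, Ccl9 and Cd38 were high both across these groups and, within well 2, in nuclei with F13a1.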

How the data were processed

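Nuclei of 2 samples were measured with the 10x Genomics 3' v3 kit after 11 cycles of cDNA amplification, per the labels' protocols. The authors deposited whole UMI counts per gene and barcode, made with Cell Ranger 5.0 on mm10 per the submitters' processing notes and 5.0.1 per the file headers. Whether introns were counted and which annotation was used is not given in the sources at hand. If introns were counted, long genes gain counts.

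Barcodes with under 500 UMIs, under 300 genes or over 5% mitochondrial UMIs were removed, as were 5 nuclei of well 2 and 0 of well 1 that Scrublet (scanpy 1.11.5) took for doublets, a low yield, so doublets may remain. After scaling each nucleus to 10000 UMIs and taking logs, Leiden clustering (resolution 0.5) used 2000 variable genes without the members, with 30 principal components and 15 neighbours. A marker counted with 5 UMIs, 20 CPM and 0.5 of its highest cluster level. A macrophage-marker cluster needed 3 macrophage markers and more of them than epithelial ones. The ratio of summed counts was checked on simulated counts (Python 3.11.15, numpy 2.4.6, scipy 1.17.1), which lack the gathering of UMIs in few nuclei. The co-detection ratio was checked to average near 1 for independent genes, and the coverage of its interval was not checked.

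With 1 sample per genotype and 0 of 2 wells mapped, there was no test, and intervals cover counting error only. Precision rests on 7342649 UMIs in the nuclei kept. Detection was compared after thinning to 1000 UMIs. Ratios across F13a1 were taken over all genes with 100 UMIs and called at 1.5. Genes besides the members were named by lists, by the 10 highest lower bounds of that ratio, and by the 10 closest level patterns among genes reaching 50 CPM, without predicted genes. Comparisons of paralogs were left at the authors' counts. The values of 1 listed gene are not reported here. The members, lists and motifs were chosen with earlier results of these data known. Alternatives covered thinning, clustering, nuclei left out, the dividing gene and the gene filter.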

Additional observations from a re-analysis of the deposited data

How the results depend on the processing

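Over 16 alternative settings and 66 results, 463 of 520 values moved by less than their counting interval (counts of genes by less than 1.5 times), 56 moved further and 1 turned direction. Thinning to 500 and to 2000 UMIs put the well 2 share of Mrc1 (48.9%) at 35.5% and 60.1%, of F13a1 (38.5%) at 26.6% and 45.4%, and of a resident gene with F13a1 (33.1%) at 20.3% and 43.5%. F13a1 without a resident gene (5.34%) was at 1.85% at 2000 UMIs. The ratio of Mrc1 (4.50) was 5.12 at 2000 UMIs, and 3.94 without the 5 nuclei with most member UMIs, an alternative added after seeing the data. The ratio of Fn1 (2.14) was 0.982 at 500 UMIs; the cause was not tested. With genes of at least 30 UMIs, 866 genes in place of 348 reached 1.5. More genes are tested at that filter, and the share of them that reached 1.5 was not compared. The members' summed level over all nuclei (818 CPM) was 956 CPM as a mean over nuclei. Taking nuclei by marker counts left 71.3% in place of 87.4% of well 2 and 55.0% in place of 62.9% of well 1 as macrophage-marker nuclei. Co-detection of F13a1 ranged from 1.43 to 1.81 with Mrc1, 2.20 to 3.22 with Lyve1, 2.20 to 3.49 with Ednrb and 1.15 to 1.31 with Ccr2, and that of Mrc1 with Ccr2 from 1.18 to 1.72. Co-detection of F13a1 with Vcan ranged from 1.25 to 1.92, and with Fn1 from 0.984 to 1.25. The level ratio of Ccr2 (1.33) ranged from 1.05 to 2.20.

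No paired analysis was possible because there was 1 library per genotype and the wells carry no genotype, so leaving out a replicate was not run. The ratio of Lyve1 had no value at 2000 UMIs, with 0 UMIs on 1 side. Depth limits the scarce members, each seen in under 50 nuclei.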

Other observations

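Cluster 4, 254 nuclei with a median of 698 UMIs, held both epithelial and macrophage markers and was left out of the comparisons. Its nuclei had the members at 189 CPM (141 to 248), summed, while its well 2 nuclei had 488 CPM (260 to 834) and its well 1 nuclei 157 CPM (112 to 214). The epithelial-marker nuclei of cluster 5 from well 2 had the members at 110.2 CPM (69.9 to 165) and those from well 1 at 28.3 CPM (21.4 to 36.8), so that both kinds of nuclei held more member RNA in the well whose macrophage-marker nuclei did. Xist had 240 UMIs (1150 CPM) in epithelial-marker nuclei of well 2, where Uty had 1 UMI, while macrophage-marker nuclei of that well had 7 UMIs of Xist. The sex-linked RNA of well 2 thus differed between its macrophage-marker and its epithelial-marker nuclei. In the 14 well 2 nuclei that clustered with those of well 1 in cluster 1, the 9 members had 8 UMIs in all, 284 CPM (123 to 560).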
